A study of Homo sapiens with 14 samples.

Results

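The 10 genes of the cadherin switch and of epithelial-mesenchymal transition (EMT) were followed through human embryonic stem cells (hESC), endoderm, foregut and gastruloids. They were taken by name: the cadherins CDH1 and CDH2, the epithelial surface genes EPCAM and CLDN6, the transcription factors SNAI1, SNAI2, ZEB1, ZEB2 and TWIST1, and the filament gene VIM. All 10 are among the 63677 gene identifiers of the bulk RNA-seq tables, of which 55665 carry a symbol in the annotation.

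An epithelial cell is held to its neighbours by E-cadherin, the product of CDH1, which joins cells at adherens junctions and is tied to the actin skeleton through catenins. When cells leave an epithelium, as at the primitive streak during gastrulation, E-cadherin is typically replaced by N-cadherin, the product of CDH2, and vimentin filaments are built. SNAI, ZEB and TWIST proteins are the classical factors of this transition, and SNAI and ZEB proteins bind E-box motifs, among them that of the CDH1 promoter, and repress. Definitive endoderm passes through such a state after the streak and later forms epithelium again, as in the gut tube.

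The bulk libraries were made from H9, an established human embryonic stem cell line. The groups were undifferentiated hESC (2 libraries, whose labels name no dCAS9-KRAB), endoderm with dCAS9-KRAB and no sgRNA (3, called control endoderm), endoderm with dCAS9-KRAB and a sgRNA against LTR5 (3), and foregut without (2) and with (2) this sgRNA. dCAS9-KRAB is a nuclease-dead Cas9 fused to a KRAB repressor, which silences the sites its sgRNA matches, here long terminal repeats of HERVK, and it was delivered by lentivirus. Endoderm had been made in 3 days with Activin A and CHIR, and foregut by 3 further days of a pancreatic kit protocol. Gastruloids, aggregates of stem cells that form embryonic tissues in culture, were made from H9 with CHIR, before and after aggregation, and a Rock inhibitor, and gave 1 single-nucleus preparation at 72 h, with RNA and open chromatin read from the same nuclei.

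Titles and source names put 4 libraries in the foregut groups, whereas other fields of the same 4 records read hESC or endoderm without sgRNA, and the titles were followed here. Marker genes went with the titles: the summed level of 9 foregut markers was 2288 to 2336 CPM (counts scaled to a common library total) in control foregut, 1928 to 2279 in foregut with the sgRNA and 94.1 to 110.3 in control endoderm. The 8 definitive endoderm markers summed to 5401 to 6034 CPM in control endoderm and 28.3 to 42.6 in hESC. Libraries held 11583063 to 37152434 gene reads, with 8.30 to 34.7% of them mitochondrial, highest in foregut with the sgRNA, replicate 1. Log2 counts of the 2 libraries of foregut with the sgRNA correlated at 0.782 over genes, those of control foregut at 0.865 and those of every other pair within a group at 0.952 or more. LTR5B reads summed to 5.03 to 5.57 CPM in control endoderm and 1.5 to 3.36 with the sgRNA, and to 9.29 and 12.4 CPM in control foregut and 4.28 and 5.59 with it. Over integrants named only as LTR5 repeats, with no other element, the LTR5B sums of endoderm without and with the sgRNA overlapped (1.89 to 2.46 and 1.26 to 2.24 CPM). LTR5_Hs reads summed to 17.8 to 19.2 and 10.6 to 14.1 CPM in endoderm without and with the sgRNA, and in foregut to 9.10 and 8.75 without and 4.43 and 10.9 with it, replicate 2 lying above both controls. Separate differentiations are not given for each library, so p-values measure the spread between these libraries. For foregut with against without the sgRNA, intervals have the width of a normal distribution, the fit having taken this spread from many genes together. Whether foregut and endoderm were sequenced together is not stated, so that tissue and sequencing batch cannot be told apart. In bulk RNA, fewer cells of a type and less RNA per cell cannot be told apart either.

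The 250 bases before the start of 4 members are shown: CDH2 and CLDN6 went in opposite directions in both changes of tissue, VIM had the largest called rise of the members from hESC to control endoderm, and ZEB1 alone among the members with a sequence held an E-box there. The E-box letters searched were CACCTG and CAGGTG, which are each other's reverse complement, and matches are in capitals. Sequences are from RefSeq on GRCh38.p14, on the strand of the gene and 5′ to 3′. The CDH2 window lies at chr18:28177131-28177380 (minus strand), that of CLDN6 at chr16:3018184-3018433 (minus), that of VIM at chr10:17227991-17228240 (plus) and that of ZEB1 at chr10:31318966-31319215 (plus).

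CDH2: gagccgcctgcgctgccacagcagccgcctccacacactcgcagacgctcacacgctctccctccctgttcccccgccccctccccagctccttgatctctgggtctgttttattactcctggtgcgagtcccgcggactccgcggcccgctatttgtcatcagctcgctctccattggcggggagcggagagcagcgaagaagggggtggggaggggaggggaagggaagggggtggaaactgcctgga
CLDN6: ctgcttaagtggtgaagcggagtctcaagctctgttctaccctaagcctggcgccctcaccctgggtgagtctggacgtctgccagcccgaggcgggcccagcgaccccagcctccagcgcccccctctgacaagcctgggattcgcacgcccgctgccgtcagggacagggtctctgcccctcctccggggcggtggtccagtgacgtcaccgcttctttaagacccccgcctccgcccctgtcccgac
VIM: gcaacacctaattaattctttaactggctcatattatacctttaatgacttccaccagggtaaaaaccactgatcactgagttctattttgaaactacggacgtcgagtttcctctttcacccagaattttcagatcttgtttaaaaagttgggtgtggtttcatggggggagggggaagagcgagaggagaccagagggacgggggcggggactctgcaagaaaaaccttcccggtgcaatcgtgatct
ZEB1: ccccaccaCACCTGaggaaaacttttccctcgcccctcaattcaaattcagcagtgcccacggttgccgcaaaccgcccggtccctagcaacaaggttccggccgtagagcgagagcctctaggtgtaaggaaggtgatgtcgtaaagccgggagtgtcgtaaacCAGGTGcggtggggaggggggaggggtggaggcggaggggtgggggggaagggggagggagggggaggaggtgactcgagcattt

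ZEB1 has several annotated starts. The window shown holds E-boxes that begin 242 and 85 bases before its start, and another ZEB1 window, at chr10:31318167-31318416, holds one 57 bases before the start. Over all promoters of this length, 17.5% of 35116 windows hold at least 1 of these motifs. Sequences were available for 5 of the 10 members, with 12 windows (CDH2, CLDN6, VIM, ZEB1 and ZEB2), and 2 of the 12 held an E-box. Most of the 12 windows belong to ZEB1, which so had more places to hold one than the other members. In gastruloid nuclei, an accessible peak covered the CDH2 and CLDN6 windows and the ZEB1 window shown, but not the VIM window, whose nearest peak lay 160 bases from the gene start. Such a peak covered 57.8% of all windows. Peaks covered the gene start of 8 of the 10 members, CDH1 included. The exceptions were VIM and ZEB1, whose gene start lay 321 bases from the nearest peak. The share over all gene starts was not computed, so this count has no background. Peaks covered 8.45% of the CDH1 gene, 8.99% of CDH2 and 18.49% of ZEB2, in a range over the members from 2.8% (ZEB1) to 19.25% (VIM). These shares have no background either.

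hESC and control endoderm were compared first, which asks how the switch genes change when stem cells become endoderm. Control endoderm also carried dCAS9-KRAB, brought in by transduction and puromycin selection, which the hESC labels do not name. Differentiation and this treatment cannot be told apart. CDH2, SNAI1, SNAI2, ZEB1, ZEB2 and VIM rose, EPCAM and CLDN6 fell, and CDH1 did not pass the test. The rise of CDH2 came with no called fall of CDH1. A gene was called when its edgeR quasi-likelihood test gave a Benjamini-Hochberg adjusted p under 0.05 over all genes and its fold change was over 2. By this rule 8 of 10 members were called, 6 higher and 2 lower, where 26.0% of all genes tested were called, 14.2% higher and 11.7% lower.

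CDH2 stood at 62.9 and 69.8 CPM in hESC, normalised by trimmed mean of M values (TMM), and at 457.4, 490.6 and 425.5 in control endoderm. Every endoderm library lay above both hESC libraries. This was a 6.91-fold rise, 2.79 ± 0.20 on the log2 scale (SE; edgeR adjusted p = 3.3e-08).

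CDH1 was at 217.8 and 200.6 CPM in hESC and at 206.1, 136.3 and 88.96 in control endoderm. The groups overlapped, since the first endoderm library was at the level of hESC and the third well below it. The log2 difference was −0.54 ± 0.26 (95% interval −1.09 to 0.02, edgeR adjusted p = 0.12). It was −0.89 (adjusted p = 7.3e-06) without control endoderm replicate 1, −0.54 with an adjusted p of 0.021 when genes with 1 read in any library were kept, and under a fold of 2 in every alternative fit that was run.

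Set against each other per kilobase of canonical transcript, the cadherins changed places, as did their means per kilobase of all exons (CDH1 34.4 and CDH2 7.73 in hESC, 23.7 and 53.3 in control endoderm). CDH2 was 25.7 and 29.4% of the summed CPM per kb of both cadherins in hESC, and 72.7, 81.2 and 85.2% in control endoderm. The log2 ratio of CDH2 to CDH1 differed by 3.41, with no overlap of the groups. An exact permutation test over libraries (2-sided) gave p = 0.1, the smallest that 2 against 3 libraries allow.

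**Figure D1:**
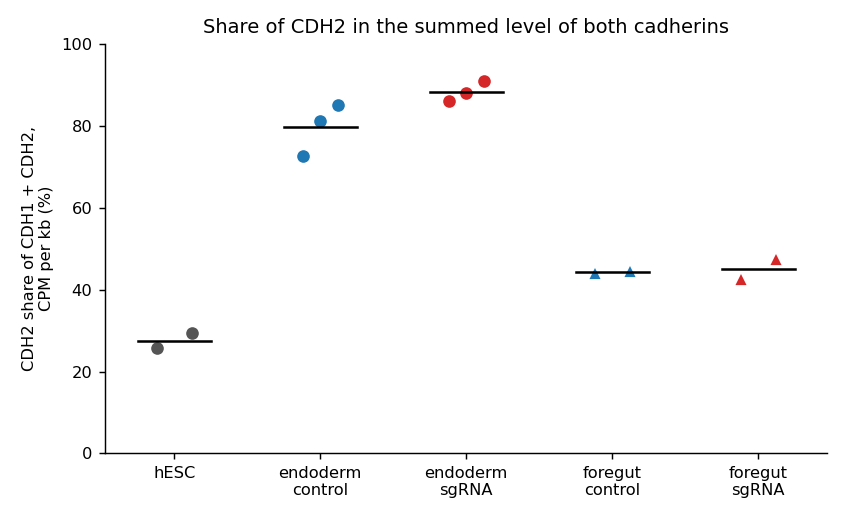
Share of CDH2 in the summed CPM per kb of CDH1 and CDH2 (y axis, %) in the 5 bulk groups, with 1 point per library and lines at group means. Means are 27.6% in hESC, 79.7 and 88.3% in endoderm without and with the LTR5 sgRNA, and 44.4 and 45.0% in foregut without and with it.

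EPCAM, an adhesion molecule of epithelia and of stem cells, was at 449.8 and 293.0 CPM in hESC and at 167.1, 176.8 and 135.9 in control endoderm. CLDN6, a tight junction claudin of early embryonic epithelia, was at 1363 and 960.3 CPM and then at 242.4, 403.4 and 324.4. Neither gene's groups overlapped. EPCAM fell by 1.21 on the log2 scale (± 0.21 SE, edgeR adjusted p = 0.00024) and CLDN6 by 1.84 (± 0.22 SE, adjusted p = 8.2e-06).

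Of the transcription factors, SNAI1 went from 3.67 and 3.38 CPM to 20.6, 10.9 and 12.5, and SNAI2 from 1.11 and 0.92 to 11, 3.49 and 8.92. Both rose, by 2.06 ± 0.31 and 2.94 ± 0.45 on the log2 scale (edgeR adjusted p = 8.9e-05 and 1.0e-04). ZEB1 was at 1.92 and 4.26 CPM in hESC and 6.5 to 8.81 in control endoderm, and ZEB2 at 1.45 and 3.70 and then 4.64 to 7.21. Their rises of 1.28 ± 0.34 and 1.23 ± 0.37 (edgeR adjusted p = 0.0070 and 0.016) were smaller and left little room between the groups. TWIST1, a helix-loop-helix factor of mesoderm and mesenchyme, had no read in either hESC library and 9, 2 and 1 reads in control endoderm (0.45, 0.092 and 0.064 CPM). Against a floor of 3 reads per hESC library (0.127 and 0.133 CPM) its mean was at least 1.54-fold higher, which rests on the library with 9 reads, since the others lay below that floor. It was not called, but was when all 12 libraries were in 1 fit (edgeR adjusted p = 0.032) and when genes with 1 read in any library were kept (adjusted p = 0.040).

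VIM, the type III intermediate filament, rose most of the 10 members by called fold. It stood at 100.5 and 105.7 CPM in hESC and at 1427, 1887 and 2147 in control endoderm, a 17.7-fold rise of 4.14 ± 0.23 on the log2 scale (edgeR adjusted p = 3.3e-09). Per kilobase of canonical transcript VIM came next after CLDN6 and EPCAM in hESC (47.9 CPM per kb, with CDH1 at 43.5) and first in control endoderm, at 845 CPM per kb against 237 for CLDN6 and 114 for CDH2. Per kilobase of all exons it stayed first in control endoderm (352) but lay below CDH1 in hESC (19.9 against 34.4). CDH2 and EPCAM (103 CPM per kb) did not differ beyond their spread in control endoderm. Without hESC replicate 1, EPCAM (log2 −0.87), ZEB1 (0.82, adjusted p = 0.13) and ZEB2 (0.72, adjusted p = 0.22) lost their calls and 5 members remained called. If counting ignored strand, which is not stated, reads of VIM-AS1, ZEB1-AS1, ZEB2-AS1 and, at CLDN6, of TNFRSF12A could have entered these counts.

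**Figure D2:**
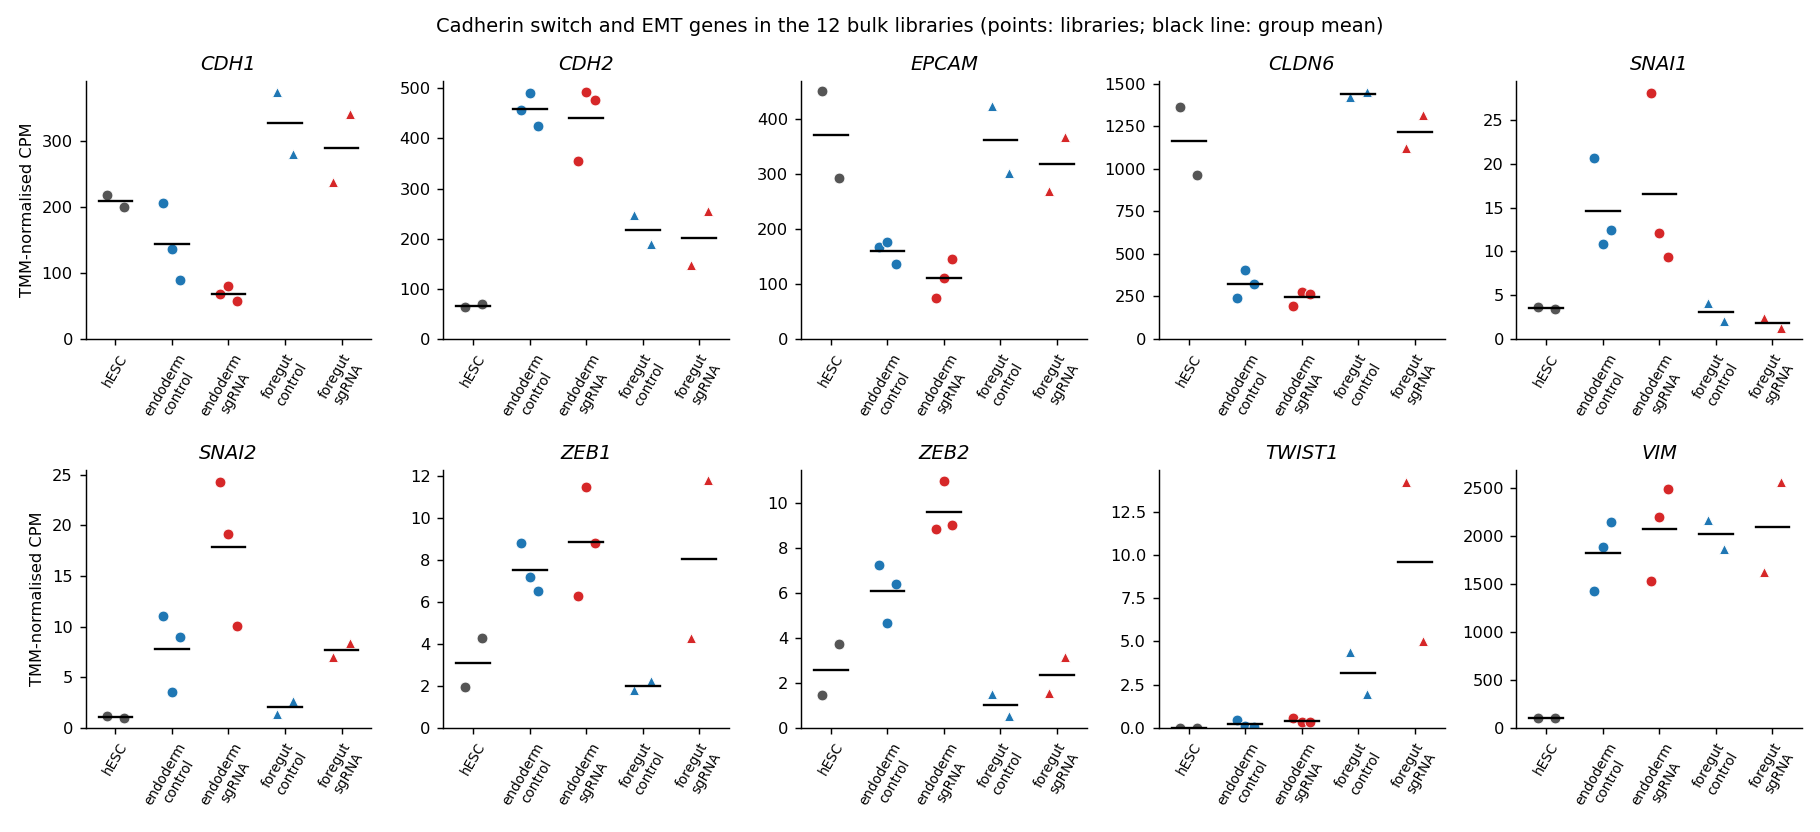
TMM-normalised CPM (y axis, a separate linear scale per gene) of the 10 genes in the 12 bulk libraries, with 1 point per library and a line at each group mean. CDH2, SNAI1 and VIM are higher in every endoderm library than in both hESC libraries, and in control foregut VIM stays at 1872 to 2173 CPM while CDH1, EPCAM and CLDN6 are again high.

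The wider programs were described with gene lists. Of 21 mesenchymal program genes tested, 9 rose and 1 fell (median log2 difference 0.36, against 0.05 over all genes): TNC, a matrix glycoprotein, rose by 4.28, ITGA5, the fibronectin receptor subunit, by 3.52 and LGALS1 by 3.32, while THY1 fell by 2.39. Of 25 epithelial junction and polarity genes, 3 rose and 6 fell (median −0.08), the plakophilin PKP2 rising by 1.90, and CLDN4 falling by 1.97. Epithelial program genes went both ways, 5 up and 5 down of 17 (median −0.35). The keratin KRT19 and the factor KLF5 rose by 3.61 and 4.66, and the protease ST14 fell by 2.90.

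Other EMT transcription factors gave 7 rises and 3 falls among 15 tested (median 2.24). The largest rises were GSC (8.21), TBXT (8.09) and EOMES (7.22), which are primitive streak and endoderm factors as much as EMT factors, and SOX9 and HMGA2 fell by 2.54 and 1.06. TGF-beta signalling genes were even, 3 up and 3 down of 15 (median 0.24), with the ligand TGFB1 up by 4.49. Mesoderm markers rose as well, 4 of 7 tested, with a summed level of 1.85 to 2.35 CPM in hESC and 22.7 to 46.8 in control endoderm. FOXF1, MEOX1, MSGN1 and HAND1 were at 0 in hESC and only MEOX1 in control endoderm, and the part of mesoderm cells in the rises of the EMT genes was not tested.

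Endoderm with the LTR5 sgRNA was set against control endoderm to ask whether silencing these repeats moves the switch. No member was called by edgeR, limma voom or DESeq2. At an unadjusted p under 0.05, CDH1, EPCAM, SNAI2 and ZEB2 passed, 4 of 10, where 5.25% of all genes did and 0.0343% were called. Groups did not overlap for CDH1 (lower) and ZEB2 (higher), 2 of 10, against 10.0% of all genes.

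CDH1 had 206.1, 136.3 and 88.96 CPM in control endoderm and 68.7, 80.8 and 56.8 with the sgRNA. All 3 sgRNA libraries lay below all 3 controls, the third control being the closest to them. The log2 difference was −1.07 ± 0.27 (95% interval −1.64 to −0.49, unadjusted p = 0.0015, edgeR adjusted p = 0.35), and the adjusted p was 0.073 with DESeq2 and 0.59 with limma voom. When genes with 1 read in any library were kept, CDH1 (adjusted p = 1.0e-04) and SNAI2 (adjusted p = 0.0012) were called. Leaving out 1 library at a time moved the difference between −1.32 and −0.71, with no call.

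SNAI2 was at 11, 3.49 and 8.92 CPM in control endoderm and at 24.3, 19.2 and 10.1 with the sgRNA. The lowest sgRNA library lay below the highest control, so the groups overlapped (log2 1.19 ± 0.38, edgeR adjusted p = 0.61). ZEB2 was at 4.64 to 7.21 CPM and then 8.82 to 10.9, without overlap (0.66 ± 0.25, edgeR adjusted p = 0.78). EPCAM was lower on average, 159.9 ± 21.4 against 109.9 ± 35.6 CPM (SD, n = 3 each), and overlapped.

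The intervals of CDH2, VIM, CLDN6, SNAI1 and ZEB1 took in no change, but moderate changes lie within them too. CDH2 was at 425.5 to 490.6 CPM without and 354.8 to 493.1 with the sgRNA, a log2 difference of −0.05 (95% interval −0.45 to 0.35). For VIM it was 0.20 (−0.28 to 0.68), for CLDN6 −0.39 (−0.87 to 0.08), for SNAI1 0.16 (−0.62 to 0.94) and for ZEB1 0.24 (−0.33 to 0.82). The CDH2 share of both cadherins was 86.1, 88.0 and 90.9% with the sgRNA, above the 72.7 to 85.2% of the controls, a difference of 0.93 in the log2 ratio (exact permutation test, p = 0.1, the smallest possible for 3 against 3).

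Of 93 genes tested in the 5 EMT lists, 0 were called by edgeR in this comparison, 21 having an unadjusted p under 0.05, and limma voom called 0 and DESeq2 1, an epithelial program gene that was lower. Of 25 junction genes 1 had a higher mean with the sgRNA (median log2 −0.39, against −0.03 over all genes), and of 16 epithelial program genes 2 did (median −0.47). Among listed genes averaging 1 CPM or more, ST14 had the smallest p, with 3.03 to 4.18 CPM in controls and 0.98 to 1.18 with the sgRNA (log2 −1.71 ± 0.32, edgeR adjusted p = 0.20), and CLDN7 had 27.8 to 33.9 and 14.9 to 18.9 CPM (−0.86 ± 0.19, adjusted p = 0.26). Mesenchymal genes split, 8 of 21 with a higher mean (median −0.14). All 8 pluripotency markers had a lower mean with the sgRNA (median −0.53), and mesoderm markers summed to 66.3 to 103.3 CPM with it against 22.7 to 46.8 in controls, with HAND1 at 37.2 to 53.0 against 11.7 to 25.6 (edgeR adjusted p = 0.20). The part of these cell type markers in the CDH1 and SNAI2 values was not tested.

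Control foregut was compared with control endoderm, and the same control endoderm libraries served in all 3 comparisons so far. CDH1, EPCAM and CLDN6 rose, CDH2, SNAI1, SNAI2, ZEB1 and ZEB2 fell, TWIST1 rose and VIM did not pass the test. Thus 9 of 10 members were called by edgeR, 4 higher and 5 lower, where 29.0% of all genes were, 14.1% higher and 14.9% lower.

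CDH1 was at 374.9 and 281.0 CPM in control foregut, against 88.96 to 206.1 in control endoderm. Both foregut libraries lay above every endoderm and both hESC libraries. The rise was 2.28-fold (log2 1.19 ± 0.32, edgeR adjusted p = 0.020). CDH2 went the other way, to 247.6 and 189.2 CPM, which remained above the 62.9 and 69.8 CPM of hESC. This was a fall by 1.06 on the log2 scale (± 0.20 SE, edgeR adjusted p = 0.0034). The CDH2 share of both cadherins was 44.2 and 44.7%, between the levels of hESC and of endoderm (log2 ratio −2.34 relative to endoderm, exact permutation test, p = 0.1, the smallest possible).

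EPCAM reached 422.4 and 301.7 CPM and CLDN6 1420 and 1452, both near their hESC levels. They rose by 1.18 ± 0.22 and 2.16 ± 0.22 on the log2 scale (edgeR adjusted p = 0.0030 and 1.4e-04). Per kilobase CLDN6 was the highest member of control foregut, at 1051 ± 17.0 CPM per kb, with VIM at 939 ± 99.0 (SD, n = 2), a difference of little more than the SD of VIM. Per kilobase of all exons the means were further apart, at 826 for CLDN6 and 391 for VIM.

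SNAI1 went to 4.08 and 2.00 CPM and SNAI2 to 1.38 and 2.69, below every endoderm library. They fell by 2.27 and 1.92 on the log2 scale (± 0.44 and 0.55 SE, edgeR adjusted p = 0.0039 and 0.026). ZEB1 went to 1.78 and 2.23 CPM and ZEB2 to 1.48 and 0.51, falls by 1.89 and 2.62 (± 0.37 and 0.53 SE). TWIST1 was alone among the 5 factors in rising, to 4.37 and 1.95 CPM from 0.064 to 0.45 (log2 3.91 ± 0.83, edgeR adjusted p = 0.0062), and in the order per kilobase of canonical transcript it was last in control endoderm and, at 1.94 ± 1.05 CPM per kb against 1.78 ± 0.86 for SNAI1 (SD, n = 2), level with SNAI1 at the head of the factors in control foregut. VIM stayed high, at 2173 and 1872 CPM, with a log2 difference of 0.16 (95% interval −0.29 to 0.61).

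Several of these calls rested on single libraries. CDH1 lost its call without control endoderm replicate 2 (log2 1.19, adjusted p = 0.055) or 3 (0.93) or control foregut replicate 1 (0.97), EPCAM without control foregut replicate 1 (0.93), and CDH2 without control endoderm replicate 2 (−0.97) or control foregut replicate 2 (−0.84). SNAI2 lost it without control endoderm replicate 1 (−1.54) or 3 (−1.83) or control foregut replicate 1 (−1.53), and 6 members remained called without control foregut replicate 1. CLDN6, SNAI1, ZEB1, ZEB2 and TWIST1 were called in every refit without 1 library.

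**Figure D3:**
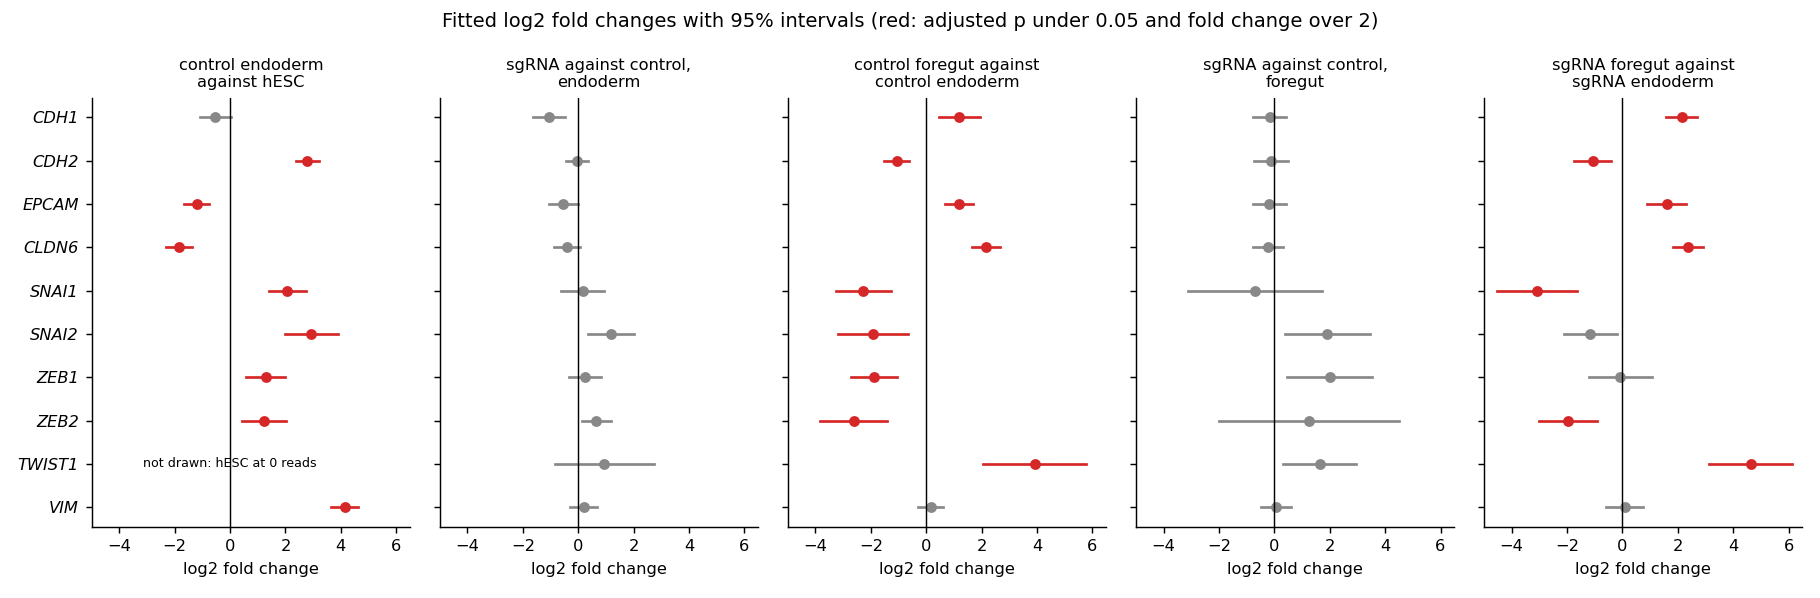
Fitted log2 fold changes (x axis) of the 10 genes with 95% intervals in 5 comparisons, red where the gene was called. CDH2 lies at 2.79 in endoderm against hESC and at −1.06 in control foregut against control endoderm, CLDN6 at −1.84 and 2.16, and no gene is red in the 2 comparisons of sgRNA with control.

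The epithelial lists went with CDH1. Of 25 junction and polarity genes 12 rose and 0 fell by the edgeR call (median log2 0.91, against −0.09 over all genes, 17 at an adjusted p alone), with CLDN4 going from 1.02 to 1.59 CPM to 153.7 and 197.9 (log2 6.99 ± 0.29) and CLDN3 and TJP3 rising by 5.12 and 4.44. Of 17 epithelial program genes 14 rose and none fell (median 1.74). The protease ST14 rose by 5.29, and the keratins KRT8 and KRT18 were at 6574 to 10700 and 4435 to 4439 CPM in control foregut against 1047 to 1366 and 410.0 to 545.9 in control endoderm.

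Mesenchymal program genes did not fall with CDH2. Of 21, 8 rose and 2 fell (median 0.60): the kidney-type cadherin CDH6 rose by 5.10 and the smooth muscle actin ACTA2 by 5.03, and TNC and CD44 fell by 2.75 and 1.66. Other EMT factors were called lower in 8 of 15 and higher in 2 (median −2.11). EOMES, TBXT and GSC fell (log2 −8.59, −7.68 and −7.58), and SNAI3 and SOX9, the latter also a factor of foregut progenitors, rose by 3.00 and 2.93. TGF-beta signalling genes were even again, 3 up and 3 down (median −0.09), and the ligand TGFB2, at 0.050 to 0.23 CPM in control endoderm, was at 92.9 and 119.4 in control foregut, while TGFB1 fell by 1.47.

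Markers of other cells moved too. Of 6 endothelial and blood markers tested 5 rose and 1 fell, CDH5, the cadherin of endothelium, standing at 30.2 and 31.3 CPM in control foregut and at most 0.18 in control endoderm, with PTPRC at 0 in both and HBZ at 0 in endoderm. Summed, these markers had 68.7 to 151.3 CPM in control endoderm and 96.4 to 120.3 in control foregut. Of 9 fibroblast and stroma markers 3 rose, COL1A1 lying at 20.5 to 33.0 CPM in control endoderm and at 231.1 and 249.0 in control foregut, with sums of 318.4 to 444.0 and 467.2 to 486.0 CPM. The part of such cells in the levels of TWIST1, VIM and the mesenchymal genes of foregut was not tested.

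**Figure D4:**
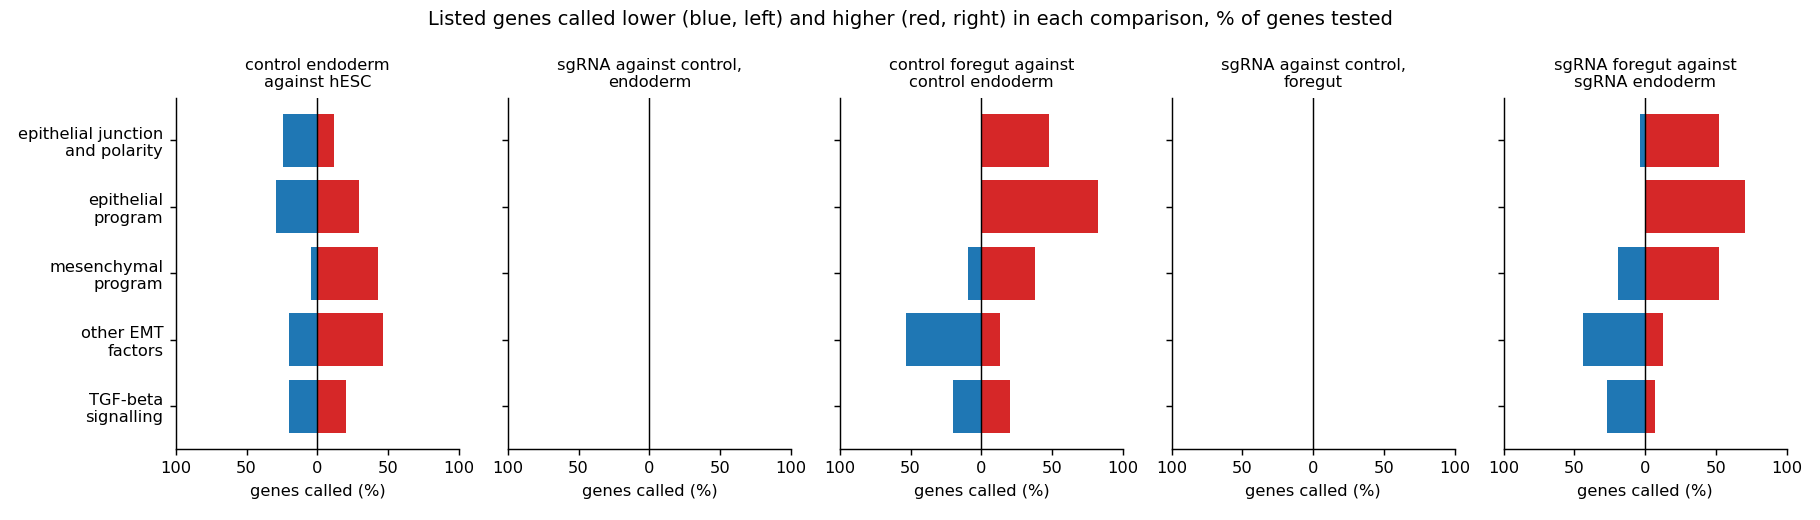
Percent of tested genes (x axis) called higher (red, right of 0) or lower (blue, left of 0) in 5 gene lists and 5 comparisons. Junction and epithelial program genes are called higher and not lower in control foregut (12 of 25 and 14 of 17), and no listed gene is called by edgeR in the comparisons of sgRNA with control.

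Foregut with the LTR5 sgRNA was compared with control foregut. No member was called by edgeR, limma voom or DESeq2, where 0.165% of all genes were called by edgeR, and SNAI2, ZEB1 and TWIST1 passed at an unadjusted p under 0.05, 3 of 10 against 3.48%. Groups of 2 did not overlap for 5 members, CLDN6 lower and SNAI2, ZEB1, ZEB2 and TWIST1 higher, where 27.3% of all genes did not overlap.

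CDH1 was at 238.3 and 340.4 CPM with the sgRNA and CDH2 at 147.7 and 255.9, each spanning the level of a control library. The log2 differences were −0.17 (95% interval −0.76 to 0.42) and −0.11 (−0.72 to 0.50), and the CDH2 share was 42.6 and 47.4% against 44.2 and 44.7% (exact permutation test, p = 1, with 0.333 the smallest possible). EPCAM, at 269.0 and 367.7 CPM, and VIM, at 1628 and 2572, also overlapped the controls.

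SNAI2 was at 6.95 and 8.42 CPM with the sgRNA against 1.38 and 2.69 without. ZEB1 was at 4.25 and 11.8 against 1.78 and 2.23, and TWIST1 at 14.25 and 5.00 against 4.37 and 1.95. In each, both sgRNA libraries were above both controls, the higher library being replicate 2 for ZEB1 and replicate 1 for TWIST1. Their log2 differences were 1.91 ± 0.79, 2.00 ± 0.78 and 1.63 ± 0.67 (unadjusted p = 0.015, 0.010 and 0.014, edgeR adjusted p = 0.9998, 0.9986 and 0.9998). ZEB1 was called without sgRNA replicate 1 (2.55, adjusted p = 0.0095) and TWIST1 without sgRNA replicate 2 (2.21, adjusted p = 0.049).

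Of 92 genes tested in the 5 EMT lists, 0 were called in foregut by edgeR, 9 having an unadjusted p under 0.05, and limma voom and DESeq2 called 0 each. The junction protein OCLN had the smallest p of the junction list, at 21.3 and 23.8 CPM without and 6.49 and 7.27 with the sgRNA (log2 −1.70 ± 0.48, edgeR adjusted p = 0.16), and CDH6 was at 392.9 and 532.3 against 126.2 and 311.3 (−1.08 ± 0.30, adjusted p = 0.15). Other markers were called: PDX1, the pancreatic factor, fell from 24.4 and 27.4 CPM to 2.73 and 7.76. AFP, the fetal serum protein of liver and yolk sac, was at 4.76 to 189.3 CPM without and at 0 to 0.035 with the sgRNA (edgeR adjusted p = 2.6e-61). HBE1, the embryonic globin, was at 12.9 to 17.4 and 0 to 0.53 (adjusted p = 1.6e-10), and both fell. The AFP controls lie far apart, and a gene's own spread hardly entered the p-values of this comparison, which are no measure of it. PDGFRB, a receptor of stromal and mural cells, rose from 2.48 and 3.88 to 12.9 and 20.2, while PDGFRA, of the same list, was at 35.1 to 55.6 CPM without and 22.9 to 42.9 with it. Stroma markers summed to 590.5 to 614.2 CPM with the sgRNA and 467.2 to 486.0 without, and endothelial and blood markers to 137.7 to 175.2 and 96.4 to 120.3, with PTPRC at 0 in both and HBZ at 0 with the sgRNA and 0.92 to 1.75 CPM without. Their part in the levels of SNAI2, ZEB1 and TWIST1 was not tested.

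Foregut with the sgRNA was also set against endoderm with the sgRNA, the same tissues as above in cells that all carry it. Here 7 of 10 members were called by edgeR, 4 higher and 3 lower, where 26.3% of all genes were, 12.9% higher and 13.4% lower. CDH1 rose by 2.14 ± 0.24 on the log2 scale, EPCAM by 1.6 ± 0.30, CLDN6 by 2.38 ± 0.23 and TWIST1 by 4.63 ± 0.65. CDH2 fell by 1.07 (± 0.29 SE), SNAI1 by 3.09 (± 0.62 SE) and ZEB2 by 1.96 (± 0.45 SE). SNAI2 (−1.16 ± 0.42, edgeR adjusted p = 0.072), ZEB1 (−0.09, 95% interval −1.22 to 1.05) and VIM (0.08, −0.60 to 0.76) were not called. CDH2 lost its call without endoderm sgRNA replicate 2 (−1.05, adjusted p = 0.085) or 3 (−1.0, 0.087) or foregut sgRNA replicate 1 (−0.74, 0.082), ZEB2 without endoderm sgRNA replicate 2 (−1.92, 0.076) or 3 (−2.0, 0.060), and SNAI2 gained one without endoderm sgRNA replicate 3 (−1.43, 0.045).

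Beside these, 13 of 25 junction genes rose and 1 fell (CTNNB1, by 1.04; median of the list 1.06, against −0.14 over all genes), 12 of 17 epithelial program genes rose and none fell (median 1.82), and mesenchymal genes gave 11 rises and 4 falls of 21 (median 1.15). Other EMT factors gave 2 rises and 7 falls of 16, and TGF-beta genes 1 and 4 of 15. The CDH2 share of both cadherins was 86.1 to 90.9% in endoderm and 42.6 and 47.4% in foregut (log2 ratio −3.23 relative to endoderm, exact permutation test, p = 0.1, the smallest possible).

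Whether the sgRNA effect differed between the tissues was tested as an interaction. No member was called by edgeR, limma voom or DESeq2, and ZEB1 alone passed at an unadjusted p under 0.05, 1 of 10 against 8.23% of all genes, of which 0.189% were called. The difference of effects was 1.74 ± 0.63 for ZEB1 (log2, foregut minus endoderm, unadjusted p = 0.015, edgeR adjusted p = 0.51) and 0.88 for CDH1 (95% interval −0.06 to 1.81). ZEB1 was called without foregut sgRNA replicate 1 (2.32, adjusted p = 0.026).

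LTR5B and LTR5_Hs integrants, 1033 in the deposited annotation, lay far from most of the members. On GRCh37 the closest was an LTR5B at chr16:2977741-2978723, 86.0 kb from CLDN6 (chr16:3064713-3070072, minus strand). The next was an LTR5_Hs 456.3 kb from CDH2 (chr18:25512843-25757910, minus strand). This LTR5_Hs, at chr18:25056505-25056548, is a short fragment, and whether it holds the sgRNA match was not checked. For the other 8 members the nearest was 977.3 kb (VIM) to 7891.7 kb (EPCAM) away, and 1780.9 kb from CDH1 (chr16:68771195-68869440, plus strand).

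Over the 12 libraries, the genes most like CDH1 in log2(CPM + 1) among 8906 genes were CDH3, another classical cadherin (r = 0.955), PDGFA (0.952) and TMEM30B (0.951). Those most like CDH2 were APLP2 (0.991), SOX17, an endoderm factor (0.988), and RNF152 (0.987). These are descriptions of 5 groups of libraries rather than of 12 independent samples. CDH3 was picked for its likeness to CDH1 in these same libraries, so its course is no separate evidence. It stood at 87.2 and 101.3 CPM in hESC and at 41.9 to 63.8 in control endoderm. These groups did not overlap, whereas those of CDH1 did. In endoderm with the sgRNA CDH3 was at 24.1 to 37 CPM, and in control foregut at 159.2 and 189.7.

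Gastruloid nuclei held 9 of the 10 members in their table, and CDH1 was not analysed in nuclei. After filters 3422 of 3646 nuclei were kept, with a median of 16302 unique molecular identifiers (UMIs), and 9 clusters were built without use of the member genes. By markers, cluster 0 was axial mesoderm-like (542 nuclei), 3 segmenting mesoderm-like (357), 6 paraxial mesoderm-like (394) and 7 presomitic mesoderm-like (503), and clusters 1, 2, 4, 5 and 8 were left without a name. Cluster 4 (418 nuclei) had 5 of 6 neuromesodermal markers at a fold of 2 or more over all nuclei. None of these was among its 10 leading genes, which include CHL1 and RMST, genes of neural cells, and also L1TD1, TNC and KANK4. It had 2 of 3 neural markers at this fold, SOX2 being in both lists. Cluster 6 was named with 4 of 7 paraxial mesoderm markers at this fold and likewise none among its 10 leading genes. On these counts, neuromesodermal-like would describe cluster 4 at least as well as paraxial mesoderm-like describes cluster 6. This is 1 preparation, so levels are sums of UMIs with exact Poisson 95% intervals that cover counting error only, and no test between clusters was made.

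EPCAM differed strongly between clusters. It had 207.8 CPM in the axial mesoderm-like cluster (interval 199.7 to 216.1, 2503 UMIs), 57.7 in cluster 4 (52.4 to 63.4) and 7.59 to 13.3 in the other 7. The axial mesoderm-like cluster is mixed: at a finer clustering EPCAM was at 214.4 CPM in 430 of its nuclei and at 55.9 in 78, and a small group given at the end had more. Nuclei were thinned to 5000 UMIs each (225 of the 3422 nuclei, being shallower, were left out). Of axial mesoderm-like nuclei, 55.3% then had an EPCAM UMI (287 of 519, exact binomial 95% interval 50.9 to 59.6%). In cluster 4 it was 24.3% (95 of 391), against 3.63 to 7.69% in the other clusters. Background was not measured, so low expression and background cannot be told apart in the latter. Without thinning these shares were 86.9, 50.2 and 7.47 to 16.8%, and median depths were 21260 and 16860 UMIs in the first 2 and 6922 to 23820 in the rest.

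CDH2 was present throughout, from 276.6 CPM in cluster 8 to 649.3 in cluster 4, and in 70.8 to 95.9% of thinned nuclei. Cluster 8 was the shallowest, with a median of 6922 UMIs against 12930 to 23820 in the other clusters. The part of depth or nucleus quality in its levels was not tested. In the axial mesoderm-like cluster CDH2 was at 454.1 CPM, below the 504.7 of all nuclei, and 241 of 519 thinned nuclei (46.4%) held UMIs of both EPCAM and CDH2, where independent detection would give 46.8%. CLDN6 was highest in cluster 4 (66.5 CPM, 60.7 to 72.6), followed by the axial mesoderm-like (32.0) and presomitic mesoderm-like (24.3) clusters, with 2.69 to 10.1 in the rest.

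The factors had separate patterns. ZEB1 was highest in the axial mesoderm-like cluster (318.5 CPM, 308.5 to 328.8) and at 60.5 to 190.8 elsewhere, whereas ZEB2 was lowest there (125.9, 119.7 to 132.4), with cluster 8 next (139.8) and up to 384.0 in the segmenting mesoderm-like cluster. TWIST1 ran from 15.2 CPM in cluster 4 and 20.7 in the presomitic mesoderm-like cluster to 135.2 in the paraxial mesoderm-like cluster. The unnamed clusters 1, 2, 5 and 8 came near the last, at 98.4 to 112.2 CPM. SNAI1, with 173 UMIs in all, was highest in the presomitic mesoderm-like cluster (8.42 CPM, 6.64 to 10.5), and SNAI2 stayed between 20.5 and 45.3. VIM was at 607.9 to 1254 CPM. The shallow cluster 8 held the lowest levels of CDH2 and ZEB1 and the highest of SNAI2 and VIM. Nuclear counts include intronic reads, so levels of long genes such as ZEB1 and ZEB2 are not set against those of short ones.

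**Figure D5:**
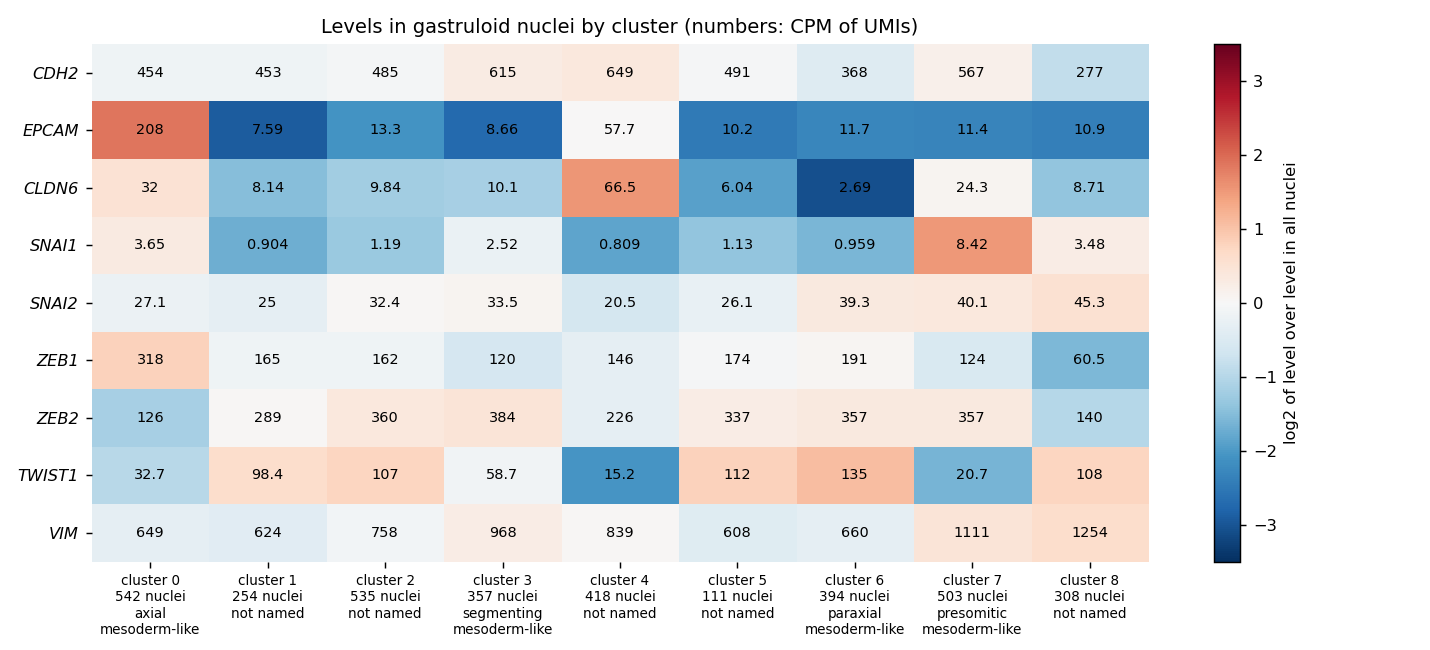
Levels of 9 member genes (rows) in 9 clusters of gastruloid nuclei (columns), with CPM of UMIs printed in each cell and colour giving the log2 ratio to the level in all nuclei. EPCAM is at 208 CPM in cluster 0 and 57.7 in cluster 4, TWIST1 is lowest in clusters 4 and 7 (15.2 and 20.7), and CDH2 is at 277 CPM or more in every cluster.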

How the data were processed

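Bulk reads (12 libraries) were aligned by the authors to hg19 with hisat2. The authors counted unique reads with featureCounts on genes and transposable elements together, and deposited raw counts per gene and per repeat integrant. For the gastruloids, the authors ran Cell Ranger on hg38 and deposited UMI counts for each gene in each nucleus, with a list of accessible peaks, given as positions only. Strand of counting is not given in the sources used here, nor is the culture that each library came from. The authors state in general that RNA-seq replicates were biologically independent. The 10 genes and the gene lists were chosen with earlier results of these data known.

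Genes with at least 3 reads in 1 library of a comparison were tested with edgeR 4.0.16 (TMM, quasi-likelihood F test, only the libraries compared, 2-sided) in R 4.3.3, adjusted over all genes tested by Benjamini-Hochberg, and called where adjusted p was below 0.05 and the fold change above 2. Levels are TMM-scaled CPM over 12 libraries, and per kb of the canonical transcript in the GRCh37 annotation. Precision is set by the 2 or 3 libraries per group. Limma voom (3.58.1), DESeq2 (1.42.0), other scalings, filters and designs, and leaving out each library were alternatives. Scripts were tested on simulated data. In each list, the genes named were the 3 called higher and 3 called lower with the largest change at a mean of 1 CPM or more, or else the gene with the smallest p, of which some are left out, and genes named beyond this were chosen after their values were seen.

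Nuclei passed at 1000 UMIs or more, 200 genes or more and a mitochondrial share of 25% or less (scanpy 1.11.5, 2000 variable genes, 30 components, Leiden resolution 0.5). Scrublet marked 70 nuclei (2.05%), which were kept. Some genes that the naming rule selects are not reported here.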

Additional observations from a re-analysis of the deposited data

How the results depend on the processing

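Precision is limited by 2 or 3 libraries per group. Of 548 member fold changes refitted with another tool, scaling, filter or design, 535 kept direction and call, 6 gained and 7 lost the call and 0 reversed. In endoderm against hESC, members called were 8, 5 to 8 without 1 library and 7 to 9 under the other alternatives. TWIST1 gained a call (adjusted p = 0.032), and ZEB1 and ZEB2 lost theirs, when all 12 libraries were in 1 fit (adjusted p = 0.079 and 0.12), and TWIST1 gained one when genes with 1 read in any library were kept (0.040). In endoderm with against without the sgRNA, 2 members (CDH1 at log2 −1.07, SNAI2 at 1.19) were called when genes with 1 read in any library were kept, and 2 when an unadjusted p with a fold limit was used. That limit gave 3 in foregut and 1 for the interaction, and leaving out 1 library gave 0 to 1 in each. In control foregut against control endoderm, SNAI2 lost its call with limma voom (adjusted p = 0.052), and CDH2 was just short of a fold of 2 with DESeq2 and with median-ratio size factors (log2 −0.9972 and −0.9966). In foregut against endoderm with the sgRNA, SNAI2 gained a call with DESeq2 (adjusted p = 0.039) and CDH2 lost it with library size only (0.065). The median of all genes moved by −0.13 and −0.15 with limma voom in the 2 comparisons of foregut with endoderm.

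Counts over all genes moved by over 1.5 times in the sgRNA comparisons: from 7 to 1 (limma voom, library size only, filterByExpr, all 12 libraries), 45 (DESeq2), 186 (1 read in any library), 4 (replicate block) and 554 (unadjusted p) in endoderm, from 33 to 11 (limma voom), 1 (filterByExpr), 221 (all 12 libraries), 19 (replicate block) and 502 (unadjusted p) in foregut, and for the interaction from 43 to 200 (DESeq2), 16 (filterByExpr), 139 (1 read in any library), 90 (all 12 libraries), 0 (replicate block) and 1682 (unadjusted p). Of those called in endoderm, 14.3% were higher, 51.1% with DESeq2 and 0 with limma voom or library size only. In foregut the share was 30.3%, 54.5% with limma voom, and for the interaction 25.6%, 39.0% with DESeq2. Without 1 library they ran from 1 to 9, 16 to 529 and 0 to 805. In foregut against endoderm with the sgRNA the count was 5458, from 3442 (without endoderm sgRNA replicate 2) to 8180.

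Without 1 library, member values that turned direction, none of them called, ran in endoderm with against without the sgRNA from −0.11 to 0.10 (CDH2) and −0.43 to 0.50 (SNAI1), and in foregut from −0.43 to 0.051 (CDH1), −0.53 to 0.23 (CDH2), −0.40 to 0.071 (EPCAM) and −0.28 to 0.34 (VIM). In foregut against endoderm with the sgRNA they ran from −0.98 to 0.46 (ZEB1) and −0.27 to 0.36 (VIM), and for the interaction from −0.51 to 0.29 (CDH2), −0.040 to 0.31 (CLDN6), −0.010 to 1.54 (ZEB2), −0.68 to 1.37 (TWIST1) and −0.51 to 0.16 (VIM). The cause was not tested.

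Same-numbered libraries deviated together by correlations of −0.04 to 0.01 in endoderm with and without the sgRNA, 0.03 and 0.04 in hESC and endoderm, 0.14 to 0.18 between tissues and −0.22 in foregut, so the numbers were not taken as pairs. With them as a replicate block, members called were 8, 0, 8, 0, 8 and 0 in the order of the report, CDH1 falling under a fold of 2 in control foregut against control endoderm (log2 0.95) and SNAI2 gaining a call between the tissues with the sgRNA. Crossed numbers in foregut, added after seeing the data, called 0 members and 74 genes.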

Other observations

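At a finer clustering of the gastruloid nuclei (Leiden resolution 1.0), 34 nuclei, all from the axial mesoderm-like cluster of 542 nuclei, formed a group with a median depth of 22680 UMIs. EPCAM was at 538.1 CPM there (exact Poisson 95% interval 488.3 to 591.5, counting error only), CDH2 at 518.0, ZEB1 at 200.7 and TWIST1 at 22.6. A group of 78 nuclei, all from the same coarser cluster, had EPCAM at 55.9 CPM (46.3 to 66.9) and SNAI2 at 72.8 (61.8 to 85.2). Another 61 nuclei, with a median of 2035 UMIs, held 8 CDH2 UMIs (53.4 CPM) and 238 VIM UMIs (1587 CPM), and 0 UMIs of EPCAM, CLDN6, SNAI1 and ZEB1, for each of which the exact Poisson upper bound was 24.6 CPM. With the member genes left in at the coarser resolution, 33 nuclei, all from the axial mesoderm-like cluster, had EPCAM at 537.3 CPM. Their leading genes, DCDC2, KLHL14 and XACT first, held none of the axial mesoderm markers. The overlap of these nuclei with the group of 34 was not examined. All these clusters come from 1 sample and were not tested against each other.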
